A study of Mus musculus with 2 samples.

Results

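The 9 genes Angptl4, Pdk4, Cpt1a, Acot1, Ucp2, Plin2, Hilpda, Pnpla2 and Mgll were followed across the cell types of the mouse aortic arch on 2 diets. They were taken by symbol, and all 9 were found among the 31053 genes of the count tables. The 9 genes were chosen on earlier results of these same counts, among them differences between the diets in endothelial cells and macrophages, so every diet value below is a description and none is a test.

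Single-cell RNA sequencing (10x Genomics) was done on 1 library per diet. The ND library held cells of 2 pooled aortas of C57BL/6 mice of 16 weeks on a normal diet, and the HFD library the same from mice on a high-fat diet. Per the study's methods, mice of both groups were male and lacked Apoe, a ligand for lipoprotein clearance, and the HFD contained lard, sucrose, cholesterol and sodium cholate. Apoe-deficient mice on normal food also have raised blood cholesterol, so ND is a comparison diet and not a group without hyperlipidaemia. The arch was cut and digested for 40 minutes at 37 °C, and besides cells of the wall the gates held adipocytes and 64 airway club cells, the latter all in ND.

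Peroxisome proliferator-activated receptors (PPARs) are nuclear receptors that bind fatty acids and, together with a retinoid X receptor (Rxr), switch on genes for the use and storage of fat. Angptl4, Pdk4, Cpt1a, Acot1 and Ucp2 are PPAR targets in many tissues. Plin2, Hilpda, Pnpla2 and Mgll act at the lipid droplet: Plin2 coats it, Hilpda slows the lipase encoded by Pnpla2, Pnpla2 takes the first fatty acid off a triglyceride and Mgll takes the last one off the monoglyceride. Several of these genes answer to other signals as well, Hilpda and Angptl4 to low oxygen and Pdk4 to glucocorticoids and FoxO factors. Capillary endothelium of fat and heart passes fatty acids from blood to tissue, and macrophages of the atherosclerotic wall fill with lipid droplets and become foam cells.

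On GRCm38 (GENCODE M21), Angptl4 lies at chr17:33773750-33781830, Pdk4 at chr6:5483351-5496309 and Plin2 at chr4:86648386-86670060, all on the minus strand. On the plus strand lie Cpt1a at chr19:3322334-3385733, Acot1 at chr12:84009490-84018371, Ucp2 at chr7:100493337-100502020, Hilpda at chr6:29272488-29275446, Pnpla2 at chr7:141455198-141460743 and Mgll at chr6:88724412-88828360. Each symbol matched its Ensembl identifier in the count tables.

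A PPAR and its partner bind a direct repeat of AGGTCA with 1 base between the copies. This repeat was searched on both strands in the 250 bases before the start of each gene in RefSeq promoters (GRCm38.p6), with at most 2 mismatches at its 12 fixed bases. Promoters were listed for 8 of the 9 genes, the exception being Angptl4. Of these 8, Plin2 held a match, and 3.24% of all 32851 promoters searched held one. The match is shown because Plin2 was the member with the largest number of UMIs among those that differed between diets in macrophages. It lies on chromosome 4, minus strand of the genome, at chr4:86670249-86670308, upstream of the first exon, and capitals mark the 13 letters of the match, which reads on the strand opposite to the gene:

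Plin2: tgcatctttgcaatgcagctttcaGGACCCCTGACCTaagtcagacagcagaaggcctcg

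A second search, for the hypoxia core ACGTG or GCGTG on either strand, found at least 1 core before Pdk4, Ucp2, Plin2, 1 of 2 Hilpda starts and both Mgll starts, and 38.6% of all promoters held at least 1. A match is a string of letters in a window and not a measured binding site.

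Of 10234 ND and 14225 HFD barcodes, 5416 and 2739 passed the study's limits of at least 200 genes, at least 200 UMIs (unique molecules counted) and at most 30% mitochondrial UMIs, and these numbers equal the cell numbers in the submitters' description. The kept cells held 27137322 ND and 17191279 HFD UMIs. HFD cells were deeper than ND cells, with a median of 5336 UMIs (1176 to 61381) against 3732.5 UMIs (640 to 61331), and had more mitochondrial UMIs, 21.9% against 16.8% at the median. Only 1 barcode was shared by the kept cells of both libraries. Cells were assigned to types by gates on marker UMIs, with at least 3 UMIs from at least 2 markers. The endothelial gate held 2451 ND and 1264 HFD cells, of which 2020 and 1092 were capillary (Gpihbp1, Cd300lg, Aqp1) and 249 and 110 luminal (Cytl1, Vcam1, Vwf). Fibroblasts numbered 1040 and 466 and macrophages 384 and 541. The macrophages comprised 251 and 253 resident cells (Lyve1, Folr2, F13a1, Cbr2), 8 and 170 foam cells (Trem2, Gpnmb, Spp1) and 125 and 118 others. Gates of T cells (266 and 34), B cells (529 and 11), monocytes (57 and 31) and adipocytes (30 and 9) were also read. Cells with markers of several types were left out as mixed, 4.49% of ND and 7.48% of HFD cells.

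UMIs were summed over the cells of a gate and library and divided by all UMIs of these cells, and scaled to 1000000 (CPM). Values in parentheses are exact 95% intervals, Poisson for CPM, conditional binomial for the HFD to ND ratio and Clopper-Pearson for shares of cells. They cover counting error only. They take UMIs as independent, so the spread between cells of a library is not in them. With 1 library per diet the spread between mice is unknown, and no difference was tested. Levels are compared between cell types for 1 gene at a time and never between genes. The fibroblast and capillary gates were not split further. The study reports a fibroblast cluster seen only in its control group and endothelial subpopulations spread unequally over the diets. The part of such mixes in the ratios of these gates was not tested. In CPM, the median of all genes with at least 50 UMIs over both libraries moved to 0.897 times in HFD capillary cells. It moved to 0.894 times in fibroblasts, 0.934 times in macrophages, 0.923 times in resident macrophages and 0.979 times in luminal cells. Ratios below are to be read against these shifts.

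**Figure D1:**
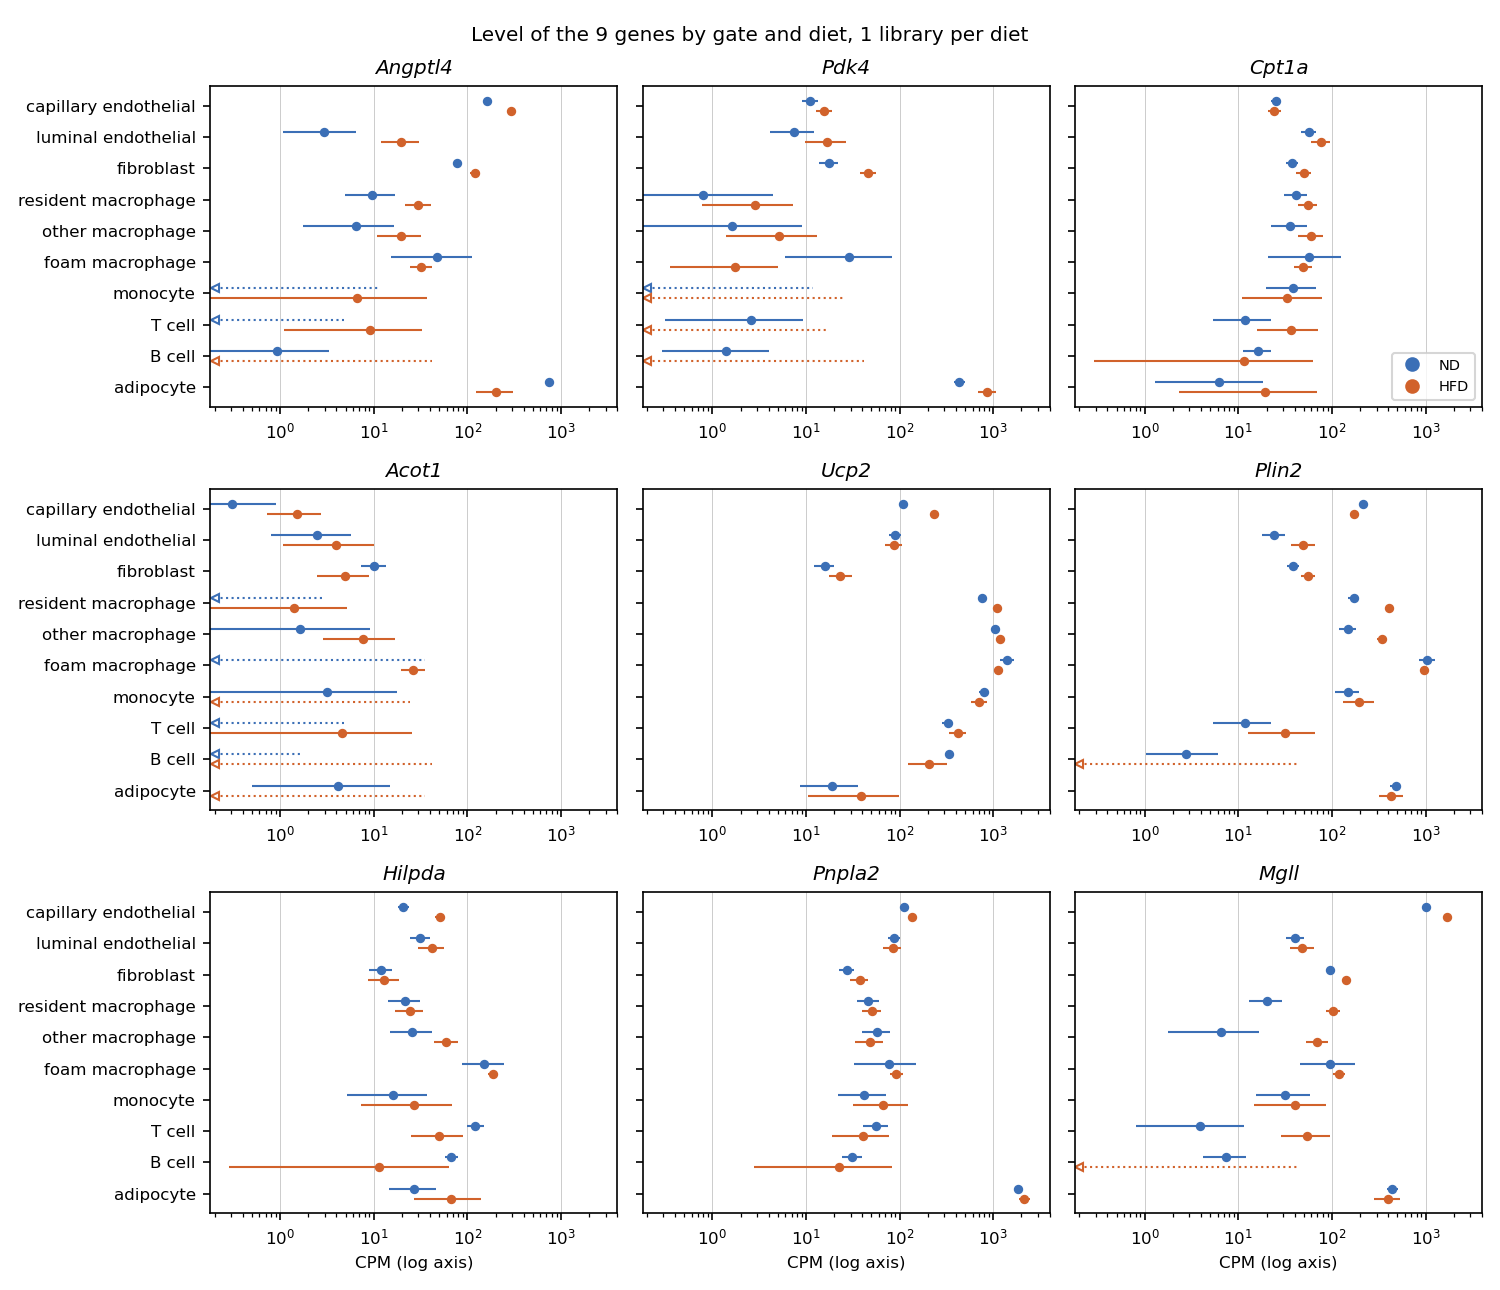
Level of each gene (CPM, log axis) in 10 gates, ND in blue and HFD in orange, with exact Poisson intervals. Open triangles with dotted lines are gates with 0 UMIs, and the line ends at the upper limit. Mgll is highest in capillary cells, Ucp2 in macrophages, Plin2 in foam macrophages, and Pnpla2 and Pdk4 in adipocytes, on both diets.

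Angptl4, a secreted inhibitor of lipoprotein lipase, had 161 CPM in ND capillary cells and 293 CPM in HFD capillary cells. The ratio of HFD to ND was 1.82 (1.70 to 1.95). In luminal cells it was low, with 6 ND and 20 HFD UMIs, or 2.94 and 19.8 CPM, so the capillary level was 54.8 times (25.1 to 149) the luminal level on ND and 14.8 times (9.58 to 24.3) on HFD. Fibroblasts held 77.6 CPM on ND and 121 CPM on HFD, a ratio of 1.56 (1.33 to 1.84). Adipocytes had 742 CPM on ND, above every other gate named here, and 201 CPM on HFD from 21 UMIs in 9 cells. Among HFD gates, the adipocyte and capillary levels were not separated by their intervals, with a ratio of 0.687 (0.424 to 1.05).

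In macrophages Angptl4 was low, 10.7 CPM on ND and 28.8 CPM on HFD, a ratio of 2.71 (1.69 to 4.54). T cells held 0 ND UMIs, and B cells 2 ND UMIs. After each cell was thinned to 1000 UMIs, 11.6% of ND and 22.5% of HFD capillary cells had an Angptl4 UMI (35.2% and 63.5% without thinning). B cells were taken as a type that should lack Angptl4, and 0 of 529 thinned ND B cells had a UMI, which allows a share of up to 0.695% (exact).

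Pdk4, the kinase that shuts off pyruvate dehydrogenase and so spares glucose, was high in adipocytes, 435 CPM on ND and 863 CPM on HFD. In fibroblasts it had 17.4 CPM on ND and 46.2 CPM on HFD, a ratio of 2.66 (1.96 to 3.62). This was the largest ratio of any of the 9 genes in fibroblasts. Capillary cells had 11.1 and 15.5 CPM, a ratio of 1.40 (1.06 to 1.85). Luminal cells had 7.35 and 16.8 CPM from 15 and 17 UMIs, with a ratio of 2.28 (1.07 to 4.91) that was not counted because too few UMIs stood behind it. Macrophages had 5 ND and 11 HFD UMIs of Pdk4 in all.

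Cpt1a, which takes long-chain fatty acids into mitochondria, had its highest level, among the gates with at least 30 cells on both diets, in luminal cells, with 56.9 CPM on ND and 76.1 CPM on HFD. The capillary level was 0.446 times (0.356 to 0.561) and 0.318 times (0.241 to 0.423) the luminal one. Capillary cells had 25.4 CPM on ND and 24.2 CPM on HFD, a ratio of 0.954 (0.777 to 1.17). Ratios in fibroblasts, macrophages and luminal cells lay between 1.33 and 1.34, and that of luminal cells had an interval of 0.990 to 1.80. None of these Cpt1a ratios passed the 1.5-fold limit, and their intervals do not show that the diets were alike.

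Acot1, a thioesterase that frees fatty acids from coenzyme A, was counted rarely, with 135 ND and 93 HFD UMIs over all kept cells. Its reads can be shared with the neighbouring paralogue Acot2, since 12.2% of the 50-base words in the last 500 bases of the longest Acot1 transcript also occur in Acot2, and 3.65% of the 90-base words do, so its level is uncertain. In the other direction, 0% of the words of either length in the last 500 bases of Acot2 occur in Acot1. HFD macrophages held 54 UMIs of Acot1 (13.8 CPM) and ND macrophages 1 UMI (0.507 CPM), a ratio of 27.2 (4.67 to 1092). Of these 54 UMIs, 46 were in foam cells (26.4 CPM), which made up 31.4% of HFD macrophages. ND foam cells held 0 UMIs, but in only 8 cells, for which 3 UMIs would be 28.6 CPM, and no ratio is given for foam cells. Within HFD, the foam level was 18.5 times (4.85 to 158) the resident one. Acot2 stood at 15.5 CPM in HFD foam cells. Outside macrophages, ND airway club cells held 40 UMIs of Acot1, or 32.0 CPM (22.9 to 43.6). ND cells that passed no gate held 18 UMIs, or 38.3 CPM (22.7 to 60.6). Both intervals overlap that of HFD foam cells (19.3 to 35.2). In fibroblasts Acot1 had 44 ND and 11 HFD UMIs, or 10.1 and 4.94 CPM, a ratio of 0.490 (0.228 to 0.965).

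Ucp2, an inner mitochondrial membrane carrier of immune and other cells, stood between 709 and 1126 CPM in the macrophage, monocyte and dendritic gates of both diets. Macrophages had 884 CPM on ND and 1126 CPM on HFD, a ratio of 1.27 (1.21 to 1.35). Resident macrophages had 756 and 1108 CPM, a ratio of 1.47 (1.35 to 1.59), just short of 1.5. Capillary cells had 108 CPM on ND and 234 CPM on HFD, a ratio of 2.16 (1.99 to 2.34). Luminal cells had 88.7 and 87.0 CPM, with a ratio of 0.980 (0.751 to 1.27). On ND the capillary level was thus 1.22 times (1.04 to 1.44) the luminal level and on HFD 2.69 times (2.17 to 3.37). Ucp3, which lies next to Ucp2, had 4 and 5 UMIs in capillary cells.

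**Figure D2:**
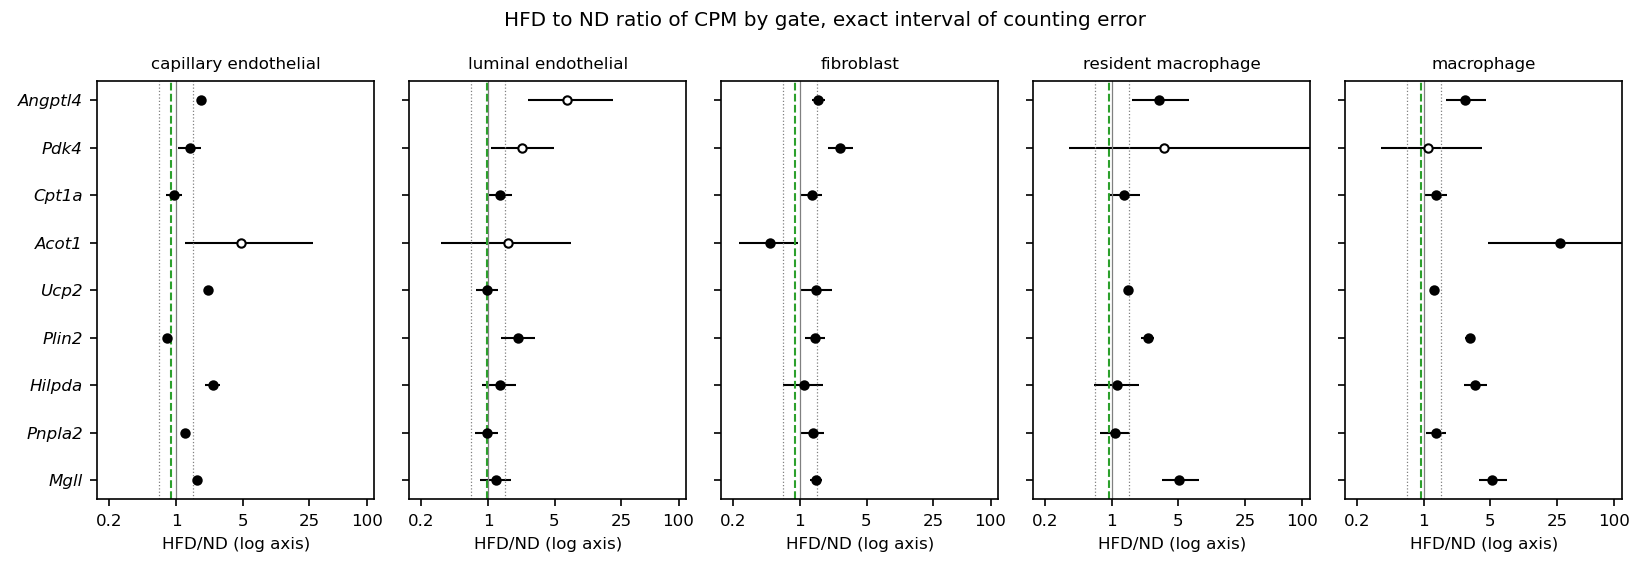
HFD to ND ratio of CPM (log axis) of each gene in 5 gates with exact intervals of counting error. Filled points have at least 50 UMIs over both libraries, open points fewer. Dotted lines are the 1.5-fold limits and the green dashed line is the median of all genes with at least 50 UMIs over both libraries. Intervals that pass the end of the axis are cut there, and a gene with 0 UMIs on a diet has no point. Plin2 is below 1 in capillary cells and above 2 in luminal cells and macrophages.

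Plin2, the coat protein of lipid droplets, had opposite ratios in capillary cells and macrophages. Capillary cells had 214 CPM (205 to 224) on ND and 173 CPM (163 to 183) on HFD. The ratio was 0.806 (0.749 to 0.866), below the median of genes with at least 50 UMIs but short of the 1.5-fold limit. Luminal cells had 24.02 and 49.4 CPM from 49 and 50 UMIs, a ratio of 2.06 (1.36 to 3.11). Marker sums of other cells moved both ways in luminal cells. The macrophage markers summed to 94.6 CPM on ND and 211 CPM on HFD. The capillary markers summed to 271 and 834 CPM and the fibroblast markers to 360 and 764 CPM. Of the capillary markers the highest stood at 237 and 784 CPM and the lowest at 11.8 and 13.8 CPM. Lower on HFD were the sums of smooth muscle (388 and 217 CPM), T cell (91.7 and 29.6 CPM) and resident macrophage markers (93.6 and 36.6 CPM). The part of such RNA in the Plin2 ratio of luminal cells was not tested. Macrophages had 210 CPM on ND and 634 CPM on HFD, a ratio of 3.03 (2.73 to 3.37). In resident cells alone the levels were 171 and 404 CPM, a ratio of 2.37 (2.02 to 2.78), and in the other macrophages 147 and 339 CPM, a ratio of 2.30 (1.80 to 2.95). Foam cells had 1038 CPM (853 to 1253) on ND, from 8 cells, and 951 CPM (906 to 998) on HFD, and these intervals overlap.

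Foam cells held 5.32% of the UMIs of ND macrophages and 44.4% of those of HFD macrophages. If each of the 3 macrophage sub-gates kept its ND level and only their shares of UMIs were those of HFD, Plin2 would stand at 552 CPM, beside the measured 634 CPM. This reweighting rests on the 8 ND foam cells. Without foam cells, the ratio of the remaining macrophages was 2.34 (2.05 to 2.67), and both values were added after the levels had been seen. A resident macrophage with a Plin2 UMI was more frequent in HFD after thinning, with 17.2% of ND and 30.0% of HFD cells (12.7 to 22.5% and 24.5 to 36.1%). Of thinned ND B cells, 0.378% had one. Adipocytes had 481 CPM on ND and 432 CPM on HFD, with overlapping intervals.

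Hilpda, an inhibitor of the first lipase of the droplet, had 20.8 CPM on ND and 50.5 CPM on HFD in capillary cells, a ratio of 2.43 (2.03 to 2.90). Luminal cells had 31.4 and 41.5 CPM, a ratio of 1.32 (0.874 to 1.98). Macrophages had 29.9 and 104 CPM, a ratio of 3.47 (2.64 to 4.64). Foam cells held 327 of the 407 HFD macrophage UMIs (188 CPM), and without foam cells the ratio was 1.59 (1.09 to 2.37). Resident cells had 21.6 and 24.2 CPM, a ratio of 1.12 (0.656 to 1.93), and the other macrophages 25.9 and 59.5 CPM, a ratio of 2.30 (1.28 to 4.34). T cells had 122 CPM on ND and 50.03 CPM on HFD, the last from 11 UMIs in 7 cells, a ratio of 0.410 (0.198 to 0.767). B cells had 67.6 CPM on ND.

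**Figure D3:**
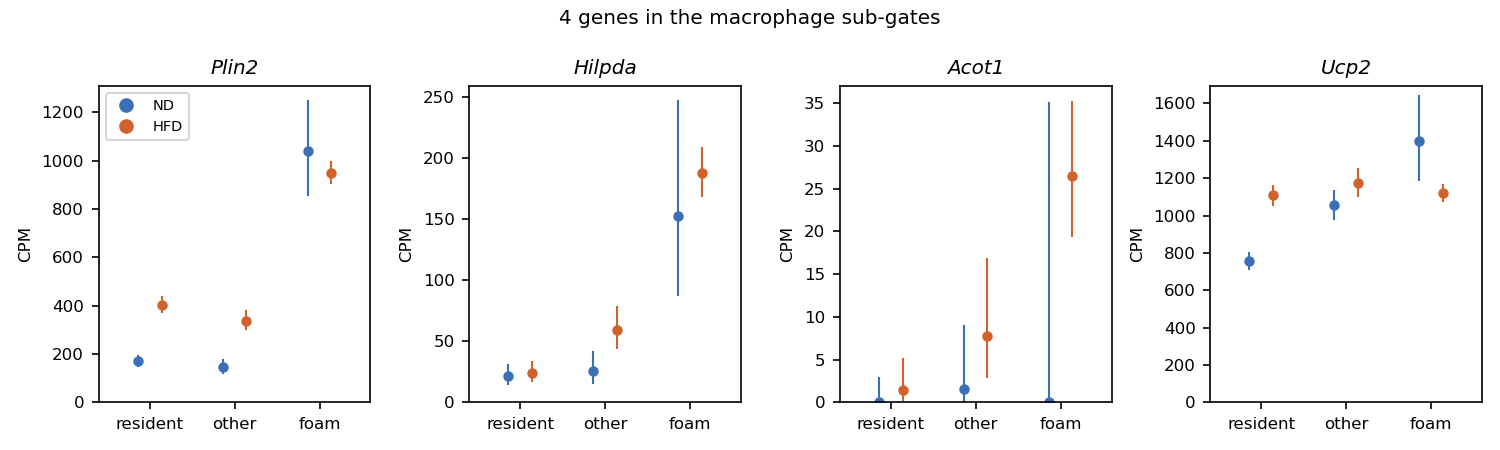
CPM of 4 genes in resident, other and foam macrophages, ND in blue and HFD in orange, with exact Poisson intervals. Plin2 and Ucp2 are higher in HFD than in ND resident cells, Hilpda stands at 21.6 and 24.2 CPM there, and Acot1 stands highest in HFD foam cells. The ND foam gate holds 8 cells.

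Pnpla2, the triglyceride lipase ATGL, was highest in adipocytes, 1847 CPM on ND and 2148 CPM on HFD. Capillary cells had 111 and 137 CPM, a ratio of 1.23 (1.13 to 1.35). Luminal cells had 86.8 and 84.0 CPM, a ratio of 0.968 (0.738 to 1.26). Fibroblasts had 27.5 and 37.2 CPM and macrophages 51.2 and 68.6 CPM, with ratios of 1.36 (1.01 to 1.81) and 1.34 (1.06 to 1.70). In resident macrophages the ratio was 1.09 (0.758 to 1.57).

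Mgll, which splits monoglycerides and the endocannabinoid 2-arachidonoylglycerol, was highest in capillary cells on both diets. It had 1012 CPM on ND and 1694 CPM on HFD there, a ratio of 1.67 (1.63 to 1.72). Luminal cells had 40.2 and 48.4 CPM, a ratio of 1.20 (0.828 to 1.74). After thinning, 59.8% of ND and 77.9% of HFD capillary cells had a Mgll UMI, against 5.28% and 5.45% of luminal cells and 0.945% of ND B cells. Before thinning, the median depth was 3483 and 5330.5 UMIs in capillary cells, 6554 and 7465.5 UMIs in luminal cells and 3441 UMIs in ND B cells. Fibroblasts had 96.1 and 142 CPM, a ratio of 1.48 (1.28 to 1.72). Macrophages had 19.8 and 104 CPM, a ratio of 5.24 (3.76 to 7.47), and resident macrophages 20.02 and 103 CPM, a ratio of 5.12 (3.33 to 8.18). The resident UMIs were 25 in 12 of 251 ND cells and 144 in 45 of 253 HFD cells. With a strict gate, which takes no cell that passed for another main class, the resident ratio was 3.72 from 32 UMIs, too few to be counted, and that of Angptl4 2.53 from 24 UMIs in place of 3.11 from 54 UMIs. In macrophages of 20 to 30% mitochondrial UMIs the Mgll ratio was 13.7.

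Endothelial genes were also counted in other gates, more so on HFD in macrophages and T cells, and Mgll and Angptl4 are given beside them. For each gene, the level in a gate was divided by that in capillary cells of the same library, and this was done for 10 endothelial genes (6 markers of the gate, 3 capillary markers and Fabp4). In resident macrophages, these 10 stood at 0.568 to 3.47% of the capillary level on ND and at 2.46 to 5.47% on HFD, with medians of 2.08 and 4.40%. Mgll stood at 1.98% on ND, within that range, and at 6.05% on HFD, just above it. In HFD foam cells Mgll was at 7.05%, and the 10 genes at 1.77 to 5.83%. In HFD T cells Mgll was at 3.22%, within the range. Angptl4 lay above the 10 genes in resident macrophages on both diets, at 5.97% and 10.2%. These rest on 12 ND UMIs, or 9.61 CPM (4.97 to 16.8), and 42 HFD UMIs, or 29.9 CPM (21.6 to 40.4). In the other macrophages Angptl4 stood at 4.02% on ND and at 6.61% on HFD, from 4 and 15 UMIs. The 10 genes ran from 0.916 to 7.99% and from 2.73 to 9.11% there. Their top gene was Pecam1 on both diets, and the next, Cd300lg, stood at 3.96 and 6.00%, below Angptl4. In ND B cells Pecam1 stood at 13.3%, and the next of the 10 genes, Tie1, at 1.42%. Mgll in the other macrophages stood below the range on ND, at 0.640%, and within it on HFD, at 4.12%. Hilpda in HFD resident macrophages stood at 48.0% of the capillary level, and Plin2, Ucp2 and Cpt1a stood above that on both diets. What part endothelial RNA has in the Mgll and Angptl4 ratios of macrophages was not tested.

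**Figure D4:**
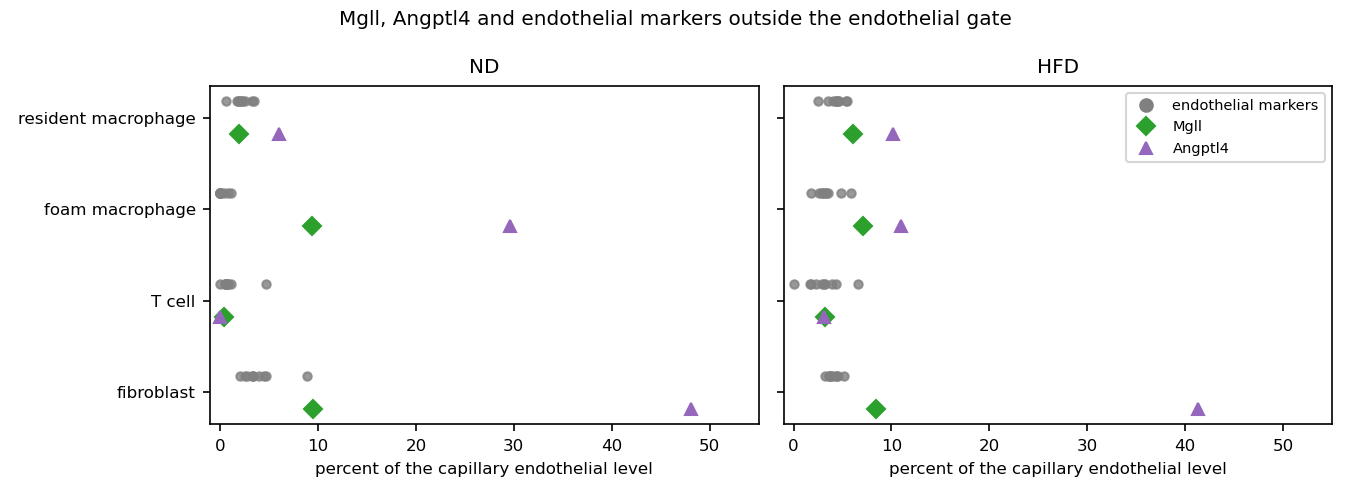
Level outside the endothelial gate as percent of the level in capillary cells of the same library, for 10 endothelial genes (grey), Mgll (green) and Angptl4 (purple). In resident macrophages the grey points lie higher on HFD than on ND, and Mgll lies within them on ND and just above them on HFD. Angptl4 is far above them in fibroblasts.

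The share of the adipocyte markers was read in the same way, since adipocytes expressed Pnpla2, Angptl4, Pdk4, Plin2 and Mgll at 201 CPM or more on both diets. In capillary cells the 5 adipocyte markers summed to 62.3 CPM on ND and 154 CPM on HFD, none at 0. Ucp1, the uncoupler of brown fat, had 11.6 CPM on ND and 112 CPM on HFD, and Adipoq, a hormone of fat cells, 16.7 and 5.41 CPM. In adipocytes themselves Ucp1 stood at 328 CPM on ND and 2887 CPM on HFD. In resident macrophages the 5 markers summed to 6.41 and 12.8 CPM, with Adipoq at 0 on ND. The part of adipocyte RNA in these ratios was not tested. Haemoglobin above 1% of UMIs was found in 1.73% of ND and 16.5% of HFD capillary cells. Without these cells the count of capillary members past the limit given next kept the same 4 genes, while the endothelial count went to 5 with Pdk4 and the fibroblast count to 3 with Mgll. Median mitochondrial shares on ND and HFD were 17.96 and 22.5% in capillary cells, 13.8 and 22.2% in fibroblasts and 16.8 and 20.4% in macrophages, and their part in the ratios was not tested.

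Members were counted as past the limit at a ratio of at least 1.5, or at most the inverse of 1.5, among genes with at least 50 UMIs over both libraries in a gate, and all genes were counted in the same way. In capillary cells 4 of the 8 members with enough UMIs were higher (Angptl4, Ucp2, Hilpda, Mgll) and none lower, and of all genes 5.98% were higher and 16.3% lower. Acot1 lacked the UMIs. The whole endothelial gate gave the same 4 of 8, beside 4.71% and 16.1% of all genes. In luminal cells 1 of 6 was higher (Plin2) and none lower, beside 7.23% and 11.1% of all genes. In fibroblasts 2 of 9 were higher (Angptl4, Pdk4) and 1 lower (Acot1), beside 4.5% and 13.7%. In macrophages 5 of 8 were higher (Angptl4, Acot1, Plin2, Hilpda, Mgll) and none lower, beside 9.3% and 15.6%. In resident macrophages 3 of 7 were higher (Angptl4, Plin2, Mgll) and none lower, beside 4.63% and 10.6%. The members were chosen from these contrasts, so nothing is read from these counts. Just inside the limit lay Angptl4 in fibroblasts at 1.56, and just outside it Pdk4 in endothelial cells at 1.49, Mgll and Ucp2 in fibroblasts, both at 1.48, and Ucp2 in resident macrophages at 1.47.

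Lists of other genes of the same pathways were read for comparison, and the genes named are those past the 1.5-fold limit. Of 10 receptors and partners, Pparg had 172 CPM on ND and 213 CPM on HFD in capillary cells and Ppara 3 and 5 UMIs, both named after their values were seen. Of the 7 with enough UMIs in capillary cells, none was higher and 1 lower, beside 5.98% and 16.3% of all genes. The lower one was Rxra, a partner of PPARs, with 32.3 and 21.5 CPM and a ratio of 0.665 (0.542 to 0.814). In macrophages 1 of 7 was higher and 1 lower, beside 9.3% and 15.6% of all genes. Pparg had 17 ND and 95 HFD UMIs, a ratio of 2.81 (1.67 to 5.02). Nrip1, a repressor of nuclear receptors, had a ratio of 0.495 (0.400 to 0.612). HFD foam cells had 37.3 CPM of Pparg and HFD resident cells 9.26 CPM.

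Of the other genes of fatty acid oxidation, none of 12 with enough UMIs passed the limit in capillary cells and their median was 1.06. In macrophages 1 of 11 was higher, beside 9.3% of all genes, and the median was 1.31. It was Etfdh, an electron carrier of oxidation, at 1.63 (0.919 to 3.07). In resident macrophages 1 of 8 was higher (Acadvl, 1.73) and 1 lower (Hadh, 0.640), beside 4.63% and 10.6% of all genes. The median there was 1.03. Of the other droplet and neutral lipid enzymes in capillary cells, 2 of 18 were higher and 2 lower, beside 5.98% and 16.3% of all genes. Lipa, the lysosomal acid lipase, was at 1.86 (1.68 to 2.06), and G0s2, which blocks ATGL, at 0.367 (0.260 to 0.509). In macrophages 3 of 10 were higher and 1 lower, beside 9.3% and 15.6% of all genes. The higher ones were the cholesterol ester enzymes Nceh1 at 2.74 (2.18 to 3.47) and Soat1 at 2.41 (1.999 to 2.91) and Lipa at 2.23 (1.97 to 2.53). The lower one was the hormone-sensitive lipase Lipe at 0.594 (0.409 to 0.867). These ratios pool sub-gates whose shares differed by diet, as given for Plin2. Within foam cells the ND and HFD levels were 219 and 220 CPM for Nceh1, 257 and 281 CPM for Soat1 and 619 and 609 CPM for Lipa, with overlapping intervals, the ND values from 8 cells. Within resident cells they were 27.2 and 37.7 CPM, 56.9 and 80.5 CPM, and 124 and 108 CPM, and Lipe stood at 28.8 and 29.2 CPM. None of the genes of this list passed the limit in resident macrophages. In fibroblasts 1 of 13 was higher and none lower, beside 4.5% and 13.7% of all genes, and the median ratio was 0.861. The higher one was Plin4, a droplet coat gene, at 2.48 (1.58 to 3.90).

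Hypoxia genes and FoxO or glucocorticoid targets were read because Hilpda, Angptl4 and Pdk4 answer to these signals too. Of 9 hypoxia genes in capillary cells, 1 was higher (Ankrd37, 2.19) and 2 lower, beside 5.98% and 16.3% of all genes. The lower ones were Adm, which encodes the vasodilator adrenomedullin, at 0.376 (0.329 to 0.429) and P4ha1, of collagen hydroxylation, at 0.536 (0.461 to 0.622). In macrophages 2 of 7 hypoxia genes were higher and none lower, beside 9.3% and 15.6% of all genes. They were Vegfa, the endothelial growth factor, at 3.74 (2.28 to 6.51) and Ndrg1 at 3.65 (2.50 to 5.50). Resident cells held 6 ND and 11 HFD UMIs of Vegfa and 10 and 23 UMIs of Ndrg1, while HFD foam cells held 102 and 180 UMIs. In fibroblasts 2 of 7 were higher and 1 lower, beside 4.5% and 13.7% of all genes, and the median ratio was 0.878. The higher ones were Adm at 2.91 (2.65 to 3.20) and Bnip3 at 2.15 (1.58 to 2.91). The lower one was Slc2a1, the glucose carrier, at 0.176 (0.0685 to 0.380). Of 10 FoxO and glucocorticoid targets none was higher and 3 were lower in capillary cells, beside 5.98% and 16.3% of all genes. The lower ones included Per1, a clock gene, at 0.571 (0.527 to 0.619). In macrophages 8 of 10 were lower, beside 15.6% of all genes, among them Tsc22d3, a glucocorticoid target, at 0.436 (0.399 to 0.478), and Sgk1 was higher at 1.76 (1.58 to 1.97). In resident macrophages, a gate without foam cells, 2 of 9 were lower, beside 10.6% of all genes, none was higher, and the median ratio was 0.759. Tsc22d3 stood at 678 and 389 CPM there, and in foam cells at 133 and 138 CPM. In fibroblasts none of 10 was higher and 1 lower, beside 4.5% and 13.7% of all genes, and the median ratio was 0.986. The lower one was Tsc22d3 at 0.342 (0.295 to 0.394). The median ratios of the receptor, droplet enzyme, hypoxia and FoxO or glucocorticoid lists were 0.776, 0.997, 0.929 and 0.878 in capillary cells, beside 0.897 for all genes tested there. In macrophages they were 0.777, 1.10, 1.01 and 0.561, beside 0.934 for all genes tested there.

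**Figure D5:**
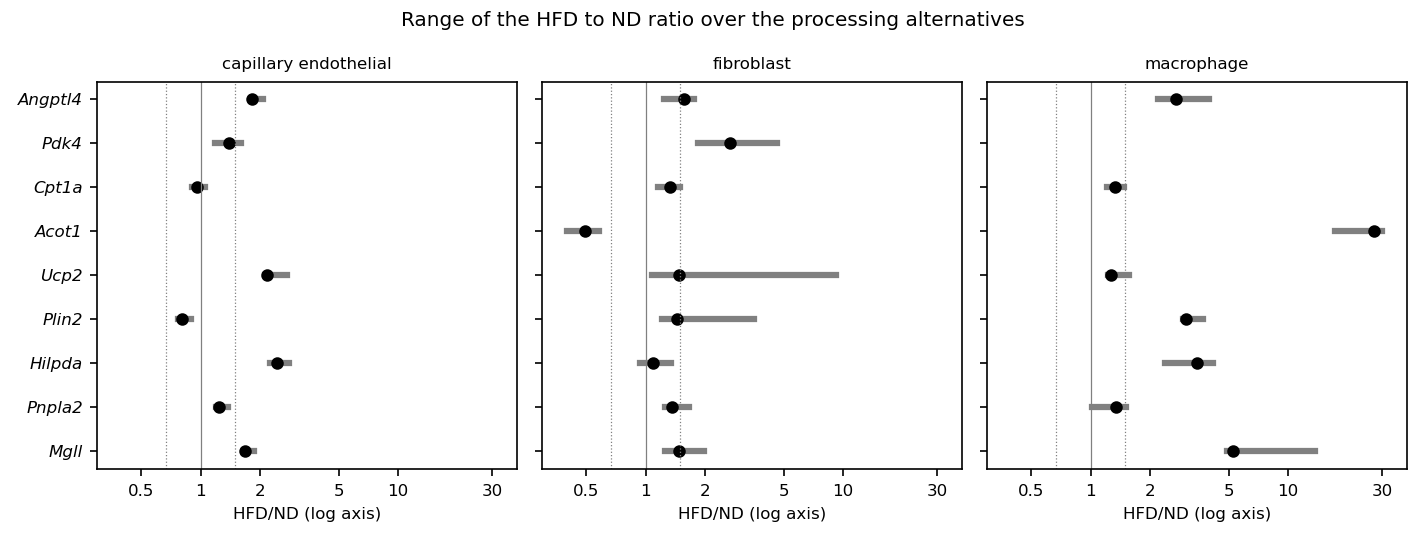
HFD to ND ratio (log axis) of each gene in capillary, fibroblast and macrophage gates. Black points are the values of the text and grey bars run from the lowest to the highest value over the processing alternatives, and dotted lines are the 1.5-fold limits. In capillary cells the 4 members past the limit stay past it, and in fibroblasts the bars of Angptl4, Cpt1a, Ucp2, Plin2, Pnpla2 and Mgll cross or come near it.

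Genes with a like pattern were sought by Pearson's r of log2(CPM + 10) over 22 points of gate and library, among 8299 genes. Points share a library and depth, and r is a description over these points with no p. The ND adipocyte and airway club gates are among the points. Mgll was most like Fabp4 (r = 0.957), Aqp7 (0.946) and Dlc1 (0.932), and Angptl4 like Asns (0.889), Dlc1 (0.889) and Mgll (0.885). Ucp2 was most like Rps6ka1 (0.953), Laptm5 (0.910) and Cd48 (0.906), and Pdk4 like Me1 (0.927), Decr1 (0.921) and Chpt1 (0.914). Pnpla2 was most like Cidea (0.922), Sucla2 (0.893) and Ndufv1 (0.888), and Plin2 like Atp6v1e1 (0.841), Cebpa (0.823) and Lamtor1 (0.819). Cpt1a was most like Elovl1 (0.852), Leprot (0.841) and Tmem50a (0.831), Acot1 like Krt19 (0.741), Msln (0.721) and Alas1 (0.713), and Hilpda like Gna13 (0.741), Osbpl8 (0.735) and Otulin (0.709). Among the members themselves, r ran from -0.749 for Pdk4 with Ucp2 to 0.885 for Angptl4 with Mgll.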

How the data were processed

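Single-cell libraries of 1 ND and 1 HFD pool of aortas were used. The authors deposited raw UMI counts per gene and barcode; the matrix headers name software version 3.0.1, and the submitters' processing notes list Cell Ranger, bcl2fastq, UMI-tools, Seurat 3.2.0, R 4.0.0 and mm10. Files that join both libraries were not used. From the counts, barcodes were filtered as in the study's methods and gated on marker UMIs: at least 3 UMIs from at least 2 markers, the leading class with at least 2 times the UMIs of any other passed, otherwise mixed. Gates of under 30 cells in a library gave no HFD to ND ratio, but their levels are given, and levels of HFD adipocytes (9 cells) were compared with another gate. UMIs were summed and given as CPM. The ratio and its interval were tried on simulated Poisson counts with known folds. These counts have no spread between cells, so the trial cannot show whether the intervals hold for the clumped UMIs of real cells. Members and gene lists were chosen with earlier results of these data known. Named genes are all 9 members; of each list and gate, those past 1.5-fold with at least 50 UMIs, at most the 4 largest per direction; and for each member the 3 genes of highest r among genes with at least 500 UMIs. From the named list genes, examples are given. Alternatives were median-of-ratios scaling, CPM without mitochondrial, haemoglobin and ribosomal genes, the mean of CPM per cell, a 20% mitochondrial limit, a strict gate, a gate after thinning to 1000 UMIs, a Pecam1 and Cdh5 gate, doublet scores, haemoglobin-rich cells, a fold of 2 and a minimum of 20 UMIs. Scrublet (scanpy 1.11.5) called 0 ND cells and 1 HFD cell, so it did not work on its own threshold, and the highest 6% of scores were left out as an alternative. Chosen after seeing the data were the cells of 20 to 30% mitochondrial UMIs and the resident macrophage gate. Depth was 27137322 and 17191279 UMIs. Promoters came from RefSeq and transcripts from GENCODE M21. Calculations used Python 3.11.15, numpy 2.4.6, scipy 1.17.1, pandas 2.3.3 and matplotlib 3.10.9. The result of the fatty acid oxidation list in fibroblasts is not reported here.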

Additional observations from a re-analysis of the deposited data

Results flagged for a closer look

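Hilpda moved apart in different cells: its HFD to ND ratio was 2.43 in capillary cells and 2.3 in macrophages that were neither resident nor foam cells, and 0.41 in T cells (94 ND and 11 HFD UMIs). This difference between gates was not tested. Barcodes that the filter left out (4818 ND and 11486 HFD, of which 4668 and 11364 were over the mitochondrial limit) were in no comparison. As shares of their non-mitochondrial UMIs, the HFD level was 2.55 times the ND level for Angptl4, 2.29 for Mgll, 2.23 for Hilpda and 1.5 for Ucp2. For the other members it was 1.42 (Plin2), 1.31 (Pdk4), 1.25 (Pnpla2), 1.17 (Cpt1a) and 0.768 (Acot1). These barcodes were not gated, so the mix of cell types is not held equal, and all genes were not counted beside the members.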

How the results depend on the processing

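No paired analysis was possible because each diet has 1 library. Of 420 member ratios under the alternatives, 355 stayed within their counting interval, 65 moved past it and 0 changed direction after a call. With a fold of 2, members higher in HFD fell to 1 in endothelial cells, 2 in capillary cells and 1 in fibroblasts. In luminal cells the count of 1 became 2 by the mean of CPM per cell, 3 with a minimum of 20 UMIs, and 0 with the strict gate and in cells of 20 to 30% mitochondrial UMIs. In fibroblasts the count of 2 higher became 5 by median-of-ratios scaling, 6 without mitochondrial, haemoglobin and ribosomal genes, 5 by the mean of CPM per cell, 4 with the 20% mitochondrial limit, 4 with the strict gate and 5 without the highest doublet scores, and the count of 1 lower became 0 with the 20% limit, the strict gate and the cells of 20 to 30% mitochondrial UMIs. In resident macrophages the count of 3 became 5 by the mean of CPM per cell and 1, Plin2, with the strict gate. Angptl4 was no longer among the fibroblast members by the mean of CPM per cell, and Acot1 lacked the UMIs in macrophages with the 20% limit and the strict gate. The cause was not tested, beyond several fibroblast ratios lying between 1.33 and 1.48. Plin2 in all endothelial cells went from 0.872 to 1.04 with the Pecam1 and Cdh5 gate. Ucp2 in fibroblasts reached 9.23 and Mgll in macrophages 13.7 in cells of 20 to 30% mitochondrial UMIs. Counting error is what the intervals cover, without the spread between cells of a library, and no limit can be given for the spread between mice.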

Other observations

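Hilpda was also read in cells that passed no gate. The 128 ungated ND cells held 116 Hilpda UMIs, 247 CPM (204 to 296), above each of the named gates on ND. This interval overlaps that of ND foam macrophages (87.1 to 248), which rests on 16 UMIs in 8 cells. The 97 ungated HFD cells held 28 UMIs, 61.3 CPM. Among ND cells with a gate, foam macrophages (152 CPM), T cells (122 CPM), B cells (67.6 CPM), dendritic cells (61.9 CPM) and neutrophils (58.6 CPM) followed. Ppargc1a, a coactivator of PPARs, was named after its values were seen. Adipocytes of the HFD library had 767 CPM of it from 80 UMIs in 9 cells, and those of the ND library 83.6 CPM from 40 UMIs in 30 cells.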
